A study of Zea mays with 11 samples.

Results

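The genes described here carried strong CHH methylation upstream of their start in the maize leaf, which makes them a proxy for genes next to CHH islands. They are the nuclear gene models whose upstream CHH methylation level in ear leaf was at least 20%, on at least 50 upstream CHH calls. Of 39475 nuclear gene models, 826 met the rule, or 2.09%. A further 90 models reached 20% in leaf on fewer than 50 calls and were not included. The leaf levels of the 826 genes ran from 20.0% to 74.68% with a median of 24.14%, on 50 to 4750 calls per gene with a median of 606.5. These leaf values chose the genes, so they are a description and no test uses them.

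The series profiled DNA methylation by whole-genome bisulfite sequencing in the inbred line Mo17, field-grown and self-pollinated, during kernel development. The endosperm group holds 8 libraries of hand-dissected endosperm at 7 and 9 days after pollination, then at 10, 11 and 13 days, and last at 15, 20 and 25 days. The whole-seed group holds 2 libraries of undissected seeds at 3 and 5 days. A single library of ear leaf at 13 days served as the control. Each stage is 1 library, so the stages of a group stand in as its replicates, and p-values measure the spread between stages. Whole seeds also hold maternal tissue and the embryo beside the endosperm, and both seed stages precede the first endosperm stage, so in that comparison tissue cannot be told apart from age.

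In plants, cytosines are methylated in the CG, CHG and CHH contexts, where H is any base but G. CG and CHG methylation is copied after replication, whereas CHH methylation has to be set anew, largely by RNA-directed DNA methylation, in which small RNAs guide a de novo methyltransferase. In maize, this pathway is known to act on short stretches close to genes, the CHH islands, which mark the border between an active gene and the transposons beside it. The endosperm is the nutritive tissue of the kernel, in which starch and storage proteins are laid down, and its maternal genomes are known to be partly demethylated.

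The level of a gene is the share of methylated CHH calls among all CHH calls in its upstream window. No source used here states the width of that window, but the leaf levels of gene pairs that lie head to head bear on it. The upstream levels within a pair differed least, by a median of 0.13 percentage points over 134 pairs, when the genes were 4500 to 5000 bases apart. For 325 pairs under 500 bases apart the median difference was 1.60 points, and for 100 pairs 10000 to 10500 bases apart it was 3.50 points. Windows of about 5000 bases before each gene would coincide at the first of these distances, so a short island would enter the level together with a longer stretch around it.

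With windows of 5000 bases, 71 of the 826 genes shared part of their window with another of them, in 36 pairs, and the 826 windows merged into 790 separate stretches. In 22 pairs, at least 2500 bases were shared. A clear case is GRMZM2G374969 and GRMZM2G072526 on chromosome 7, with 4694 shared bases, 866 methylated calls for each gene in leaf and leaf levels of 38.22% and 38.15%. Such genes are not independent observations. Another gene model reached into the window of 178 genes, or 21.5%, against 24.7% of the genes at 10 to 20% in leaf and 25.6% of those under 10%.

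The libraries held between 141135635 calls in leaf and 218350457 calls in the 11-day endosperm over nuclear gene models and their upstream windows. Of the 826 genes, 800 had at least 10 upstream CHH calls in all 11 libraries and could be tested, and 744 had at least 50. The 95% Wilson interval of the leaf level, which covers counting error only, had a median width of 6.91 points over the 826 genes. The leaf-based comparison classes are 4159 genes at 10 to 20% and 32554 genes under 10%, each on at least 50 leaf calls. CHH levels over chloroplast gene bodies, which are taken to be unmethylated, were 0.697% to 1.02% in endosperm, 0.956% and 0.828% in the 3- and 5-day seeds, and 0.670% in leaf.

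Outside the leaf, upstream CHH methylation of these genes was high in the youngest seeds, lowest in endosperm at 10 and 11 days, and higher again in late endosperm. The mean over the 800 genes was 22.2% in whole seed at 3 days and 18.5% at 5 days. In endosperm it was 13.7% at 7 days, 13.3% at 9 days, 12.1% at 10 days and 11.7% at 11 days, then 15.6% at 13 days, 18.03% at 15 days, 18.4% at 20 days and 19.3% at 25 days. The 25-day endosperm was thus above the 5-day seed but below the 3-day seed, and the ranges of the groups overlapped. The 8 endosperm libraries averaged 15.3% ± 3.00 (SD, n = 8), against 20.3% ± 2.63 in the whole seeds (SD, n = 2) and 26.2% in leaf, which is high by the choice of genes.

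**Figure D1:**
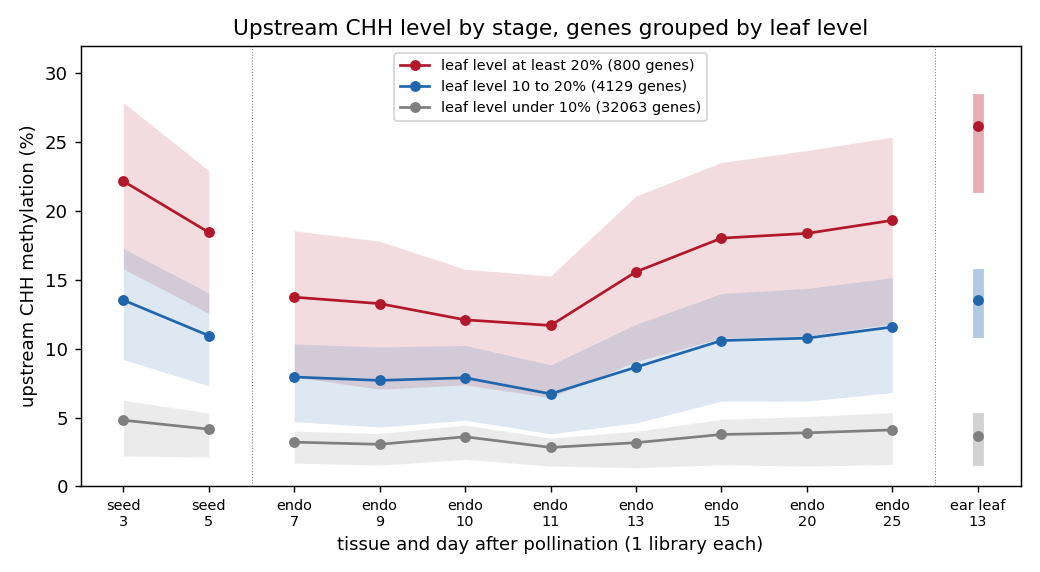
Mean upstream CHH methylation (%) against tissue and day after pollination, 1 library per stage, for genes with a leaf level of at least 20% (red, 800 genes), 10 to 20% (blue, 4129 genes) and under 10% (grey, 32063 genes); points are means over genes and the shading spans the quartiles over genes. The red curve is at 22.2% in the 3-day seed, 11.7% in the 11-day endosperm and 19.3% in the 25-day endosperm, with the blue curve following at a lower level.

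Genes of lower leaf level followed a similar course, but not at 10 days. At 9, 10 and 11 days in endosperm, the mean was 7.70%, 7.89% and 6.72% for genes at 10 to 20% in leaf. For genes under 10% in leaf it was 3.06%, 3.60% and 2.83%. The mean of the strong CHH genes instead was lower at each of these steps. Genes at 10 to 20% in leaf averaged 8.98% ± 1.76 in endosperm (SD, n = 8) and 12.2% ± 1.83 in whole seed (SD, n = 2). Genes under 10% in leaf averaged 3.45% ± 0.449 in endosperm (SD, n = 8) and 4.48% ± 0.462 in whole seed (SD, n = 2). As a share of the whole-seed mean, endosperm stood at 75.2% for the strong CHH genes, 73.4% for the class at 10 to 20% and 77.1% for the class under 10%. The ratios were close to each other while the levels differed. The straight-line change of the mean from 7 to 25 days in endosperm was 7.68 points for the strong CHH genes, 4.62 points for the class at 10 to 20% and 1.07 points for the class under 10%.

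Gene by gene, the steps were uneven. The level was higher at 13 than at 11 days in 583 of 800 genes, with a median difference of 3.16 points, and higher at 15 than at 13 days in 524 genes. The 3 steps from 7 to 11 days had median differences between -0.68 and -0.21 points. The largest single step within endosperm was therefore the one from 11 to 13 days. Of the 744 genes with at least 50 calls in every library, 220 had their lowest endosperm level at 11 days and 157 at 10 days, and 228 had their highest at 25 days, 173 at 20 days and 162 at 15 days. The 10-day library had the most upstream CHH calls per gene, a median of 1031.5 against 624.0 to 814.0 in the other endosperm libraries, and the 11-day library had the most calls in all; the part of depth in these counts was not tested.

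Counting genes at or above 20% showed a similar course, with the fewest at 10 days. Of 800 genes, 451 reached 20% in whole seed at 3 days and 311 at 5 days. In endosperm the number was 148 at 7 days, 134 at 9 days, 83 at 10 days, 102 at 11 days, 225 at 13 days, 305 at 15 days, 321 at 20 days and 357 at 25 days. Genes under 5% numbered 49 and 35 in the 3- and 5-day seeds and between 67 and 147 in endosperm, with the most at 11 days. They numbered 118 at 7 days, 134 at 9 days and 105 at 10 days. The 10-day library thus held fewer genes than the 9-day library both at or above 20% and under 5%. At 11 days the median gene stood at 42.6% of its own leaf level, and at 25 days at 73.2%.

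**Figure D2:**
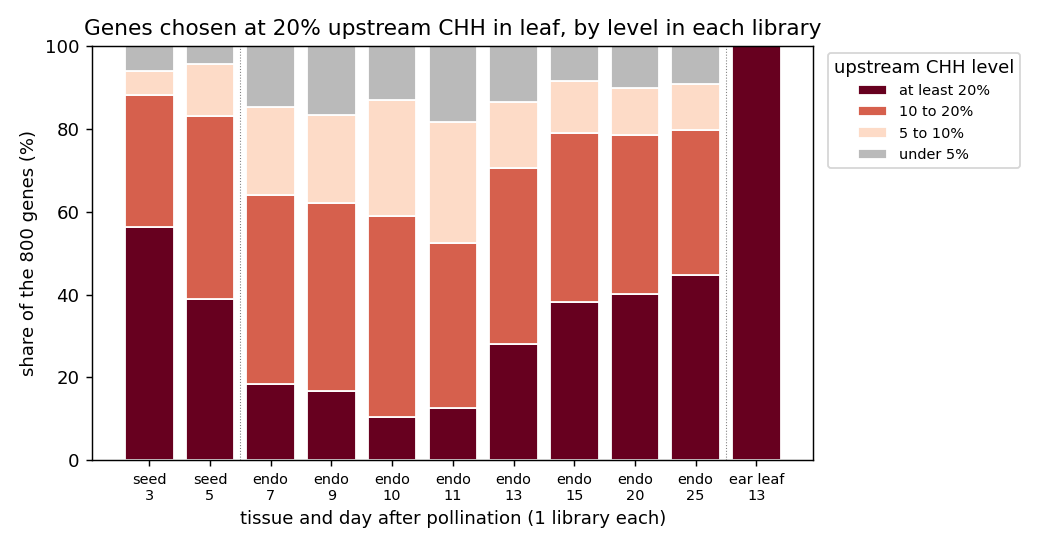
Share of the 800 genes (%) at an upstream CHH level of at least 20%, 10 to 20%, 5 to 10% and under 5% in each library, ordered by tissue and day after pollination. The darkest segment, 100% in leaf by the choice of genes, is 56.4% in the 3-day seed, 10.4% in the 10-day endosperm and 44.6% in the 25-day endosperm.

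Endosperm was compared with whole seed by limma across all 37495 genes with at least 10 calls in every library, with the leaf as a group of its own, so that the test did not use the value that chose the genes. Of the 800 strong CHH genes, 80 were lower in endosperm at a Benjamini-Hochberg adjusted p under 0.05, which is 10.0%, and 0 were higher (0.0267 percent of all genes), with 225 past an unadjusted p of 0.05 in either direction. Of all genes tested, 7.5 percent were called lower, and of the class at 10 to 20% in leaf, 14.2 percent. The share among strong CHH genes thus lay between that of all genes and that of the class just below them. The median difference over the 800 genes was -4.99 points, against -0.74 over all genes, with 630 genes lower and 170 higher in endosperm. All 8 endosperm libraries lay below both seeds in 132 of the 800 genes, or 16.5%, against 14.5% of all genes. The count leaned on the 3-day seed: without it 25 of the 800 genes were called, or 3.125%, against 2.54% of all genes.

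**Figure D3:**
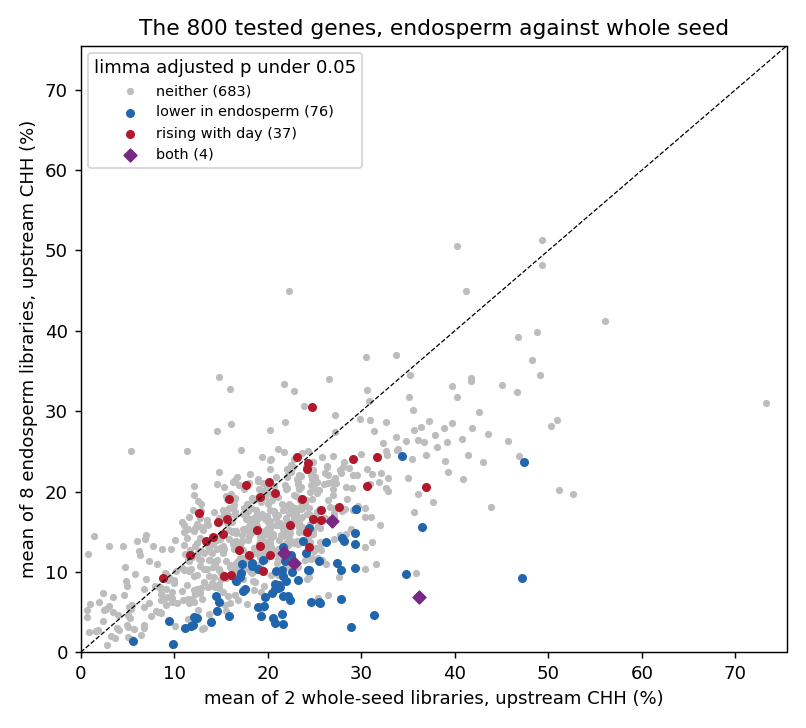
Mean upstream CHH level (%) over 8 endosperm libraries (vertical) against the mean over 2 whole-seed libraries (horizontal) for each of the 800 genes, with the line of equality dashed. Blue points were called lower in endosperm (76 genes), red points rose with day in endosperm (37 genes), purple diamonds were called in both tests (4 genes) and grey points in neither (683 genes); most points lie below the line.

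Among the called genes, GRMZM2G443302 (chromosome 2, 175335246 to 175338091, minus strand) differed most. Its level was 0.0% at the lowest, 10.2% at the median and 15.9% at the highest of the 8 endosperm libraries, against 48.8% and 45.6% in the seeds at 3 and 5 days and 38.1% in leaf. Every endosperm library lay far below both seeds, with a fitted difference of -38.0 ± 4.30 points (SE; limma adjusted p = 0.0014), although 1 library held only 27 calls. GRMZM2G092433 (chromosome 1, 259532378 to 259538954, plus strand) had 0.93%, 5.27% and 16.2% at the lowest, median and highest endosperm library, against 38.2% and 34.2% in the 3- and 5-day seeds and 21.1% in leaf. It was lower in endosperm by a fitted difference of -29.4 ± 3.53 points (SE; limma adjusted p = 0.0018). In GRMZM2G063276 on chromosome 4 the values were 0.65%, 2.87% and 11.7% in endosperm, against 39.7% and 23.0% in seed and 20.7% in leaf, a difference of -26.8 ± 4.13 points (SE; limma adjusted p = 0.0056) that was -18.4 points without the 3-day seed (limma adjusted p = 0.0539). In all 3 genes both seeds lay above the leaf, and the endosperm libraries did not overlap with the seeds.

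A pattern of at least 20% in both seeds with less than 10% in all 8 endosperm libraries occurred in 4 of the 744 genes, or 0.538%. These genes were singled out after their values were seen. The share over all genes was not counted, so the pattern cannot be called more or less frequent here. GRMZM2G092776 on chromosome 9 ranged from 1.13% to 7.06% in endosperm with a median of 2.38%, against 27.2% and 30.6% in the 3- and 5-day seeds. GRMZM2G039365 on chromosome 3 ranged from 4.06% to 9.87% in endosperm, against 22.6% and 28.5% in seed, on at least 1309 calls in each library. GRMZM2G319786 on chromosome 4 ranged from 1.16% to 9.39% in endosperm, against 22.6% and 20.7% in seed, and GRMZM2G044132 on chromosome 2 from 0.95% to 8.55%, against 20.7% and 22.4%. In all 4 genes the level was still low at 25 days, between 1.67% and 8.55%. No gene combined at least 20% in both seeds with under 5% in all 8 endosperm libraries.

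In 3 of the 800 genes, or 0.375%, all 8 endosperm libraries lay above both seeds, against 0.824% of all genes tested and 0.848% of the class at 10 to 20% in leaf. None of the 3 passed the test (limma adjusted p = 0.0638, 0.195 and 0.412 in the order below). GRMZM2G179155 ranged from 44.3% to 55.4% in endosperm, against 42.9% and 37.5% in the 3- and 5-day seeds. GRMZM5G812298 on chromosome 1 ranged from 19.4% to 55.96% in endosperm, against 17.4% and 12.2% in seed, and GRMZM2G051604 on chromosome 8 from 11.7% to 65.0%, against 2.30% and 8.51%. The shallowest library of the last held 40 calls.

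Within endosperm, the level was fitted by limma against day over the 8 libraries, and the change is given for the 18 days from 7 to 25 days. It rose in 41 of the 800 genes, or 5.12%, at an adjusted p under 0.05 and fell in 0, with 264 past an unadjusted p of 0.05 in either direction. Of all genes tested, 1.85 percent were called, with 1.84 percent rising and 0.00533 percent falling, and of the class at 10 to 20% in leaf 4.75 percent rose, a share close to that of the strong CHH genes. The median fitted change was 6.72 points over the 800 genes and 0.58 over all genes, and 680 of the 800 slopes were above 0. The adjusted calls rested on few libraries: without the 25-day endosperm 0 genes were called (228 at an unadjusted p under 0.05), and without the 7-, 9-, 10-, 11- or 20-day endosperm 25, 8, 3, 16 and 24 were. With limma's trended and robust moderation 0 were called, with 230 at an unadjusted p under 0.05.

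GRMZM2G111990 (chromosome 1, 48139884 to 48141013, minus strand) had the largest fitted change among the called genes, 43.9 ± 7.29 points (SE; limma adjusted p = 0.0330). Its endosperm levels were 4.35% at 7 days, 1.53% at 9 days, 0.0% at 10 days, 6.93% at 11 days, 23.1% at 13 days, 7.81% at 15 days, 36.99% at 20 days and 40.95% at 25 days, against 21.6% and 16% in the 3- and 5-day seeds and 42.9% in leaf. The libraries of 20 and 25 days came close to the leaf, while those up to 11 days lay below both seeds. GRMZM2G100722 on chromosome 2 ranged from 6.83% at 10 days to 47.5% at 25 days with a median of 10.8%, against 29.3% and 22.1% in seed and 21.3% in leaf, and rose by 42.0 ± 5.64 points (SE; limma adjusted p = 0.0239). GRMZM2G032564 on chromosome 10 ranged from 13.3% at 7 days to 42.3% at 25 days with a median of 17.1%, against 22.4% and 25.9% in seed and 31.6% in leaf, and rose by 33.1 ± 3.56 points (SE; limma adjusted p = 0.0158). In both, the 25-day endosperm was the highest of all 11 libraries. Over 13 alternatives the call was lost in 8 for GRMZM2G111990, 4 for GRMZM2G100722 and 2 for GRMZM2G032564, in all 3 also without the 25-day endosperm (limma adjusted p = 0.170, 0.163 and 0.101).

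The tests shared 4 genes, which is 5.00% of the 80 lower in endosperm and 9.76% of the 41 that rose with day. These shares are near those over all 800 genes, of which 5.12% rose and 10.0% were lower. Both tests use the same 8 endosperm libraries. Besides GRMZM2G092433, whose level rose by 14.7 ± 1.44 points (SE; limma adjusted p = 0.0150), the shared genes were GRMZM5G837822, GRMZM2G315506 and GRMZM2G011862. In GRMZM2G315506 on chromosome 4 the endosperm values were 4.71% at 7 days, 10.9% at 11 days and 15.7% at 25 days, against 21.4% and 24.4% in the seeds. All 4 were still below both seeds at 25 days.

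Few single genes kept the leaf threshold in every endosperm library, and few stayed near 0. Of the 744 genes with at least 50 calls in every library, 20 were at or above 20% in all 8 endosperm libraries and 9 were under 5% in all 8. More genes moved between levels: 74 were under 10% at 11 days and at least 20% at 25 days, and 2 did the reverse, GRMZM2G018217 and GRMZM2G366873. Of the 344 genes under 10% at 11 days, 124 were also under 10% at 25 days, and of the 95 genes at or above 20% at 11 days, 85 were also so at 25 days. The shares of these patterns over all genes were not counted, so none can be called particular to the strong CHH genes. Genes of lower leaf level also had their lowest endosperm mean at 11 days and their highest at 25 days. These means were 6.72% and 11.6% for genes at 10 to 20% in leaf, and 2.83% and 4.10% for those under 10%. Every endosperm library was below the leaf in 440 genes and above it in 1. The leaf value chose the genes, so a lower level in endosperm follows in part from that choice. The same count over other genes was not made. The range over the 8 endosperm libraries had a median of 14.4 points over the 744 genes, with quartiles of 10.6 and 20.4 points.

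The 5 genes with the highest minimum over seed and endosperm did not go under 27.06% in any library. GRMZM2G179155 (chromosome 1, 49192807 to 49195929, plus strand) had 44.3%, 51.6% and 55.4% at the lowest, median and highest of 8 endosperm libraries, against 42.9% and 37.5% in the 3- and 5-day seeds and 30.0% in leaf, on 56 to 155 calls. It is the gene with every endosperm library above the leaf. GRMZM2G106017 on chromosome 1 had 31.7%, 48.6% and 62.3% in endosperm, against 50.7% and 48.0% in seed and 51.9% in leaf, with its lowest endosperm value at 11 days. GRMZM2G475289 on chromosome 1 ranged from 30.3% to 48.5% in endosperm, against 54.7% and 38.9% in seed and 32.8% in leaf. GRMZM2G169486 on chromosome 3 ranged from 27.9% to 51.9% in endosperm, against 28.9% and 32.1% in seed and 36.0% in leaf. GRMZM2G374969 on chromosome 7 ranged from 27.1% to 38.8% in endosperm on at least 1815 calls, against 43.3% and 40.2% in seed and 38.2% in leaf. GRMZM2G072526, which shares most of its window, is also among the 20 genes and ranged from 25.7% to 38.0% in endosperm, so that both stand for 1 stretch. In all 5 genes the highest endosperm library was above the leaf.

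The 5 genes with the lowest maximum in endosperm had leaf levels of 20.5% to 31.2% and at most 3.89% in any endosperm library. GRMZM2G052123 (chromosome 1, 214454498 to 214456759, plus strand) had 0.0%, 0.88% and 1.69% in endosperm, against 4.37% and 1.25% in the seeds at 3 and 5 days and 31.2% in leaf, on at least 112 calls. GRMZM2G079730 on chromosome 6 had 0.94%, 1.92% and 2.18% in endosperm, against 4.37% and 3.00% in seed and 20.5% in leaf. Among the 744 genes, these 2 were the ones under 5% in all 10 seed and endosperm libraries. GRMZM2G110067 on chromosome 1 had 0.0% to 2.02% in endosperm, against 17.1% and 2.45% in seed and 21.7% in leaf. AC209381.3_FG002 on chromosome 3 had 0.0% to 2.78% in endosperm, against 7.59% and 3.52% in seed and 23.4% in leaf, and GRMZM2G119383 on chromosome 10 had 0.0% to 3.89%, against 14.3% and 5.45% in seed and 22.8% in leaf. In these 3 genes the 3-day seed was above the 5-day seed, and both were above all endosperm libraries. The last 2 passed the test against seed, with differences of -4.11 ± 1.04 points for AC209381.3_FG002 (SE; limma adjusted p = 0.0421, a call lost in 12 of 16 alternatives) and -8.87 ± 1.87 points for GRMZM2G119383 (SE; limma adjusted p = 0.0213). Without the 3-day seed both calls were lost, at -2.08 points for AC209381.3_FG002 (limma adjusted p = 0.491) and -4.45 points for GRMZM2G119383 (limma adjusted p = 0.170).

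**Figure D4:**
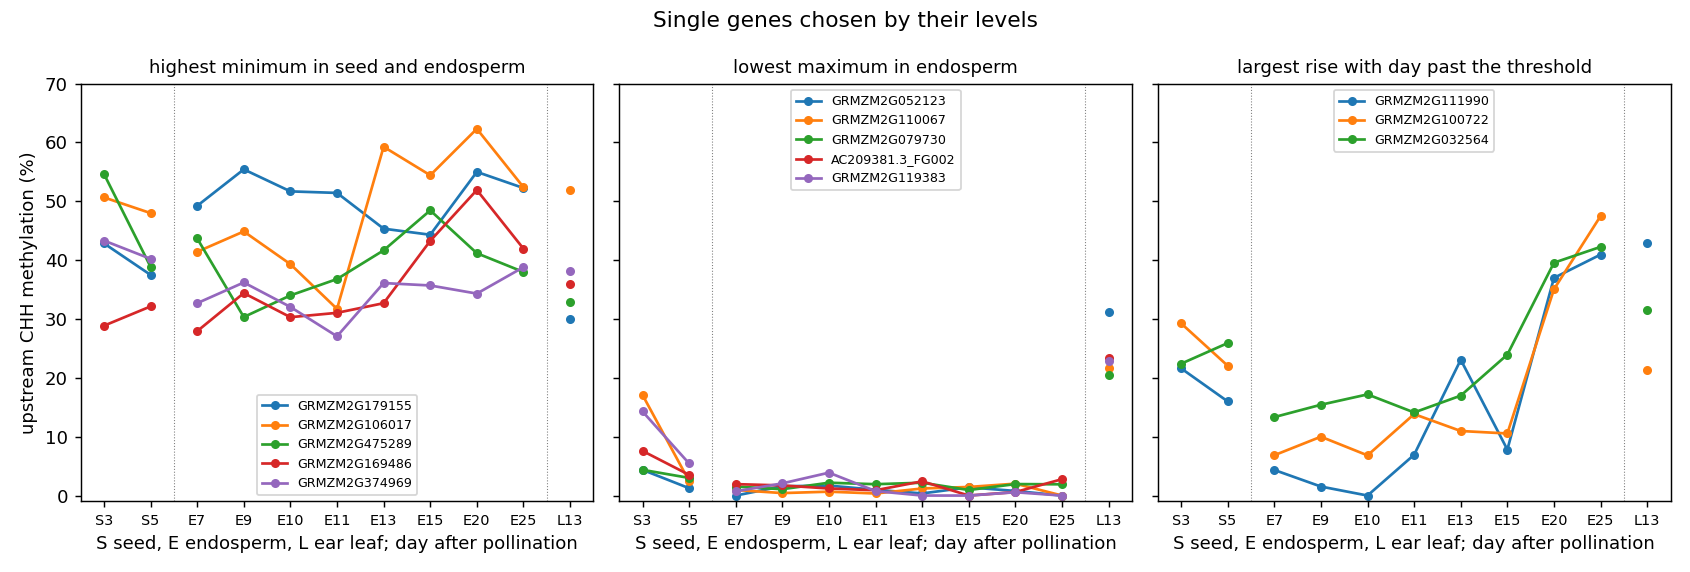
Upstream CHH level (%) of single genes by library, with S for whole seed, E for endosperm and L for ear leaf before the day after pollination. The left panel shows the 5 genes with the highest minimum, which do not go under 27.06%, the middle panel the 5 genes with the lowest maximum in endosperm, at most 3.89% there, and the right panel the 3 called genes with the largest rise, which end between 40.95% and 47.5%.

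Upstream CHG and CG methylation of these groups is given as description. The 20 genes at or above 20% in all endosperm libraries had a median upstream CHG level of 56.5% in endosperm, 59.2% in whole seed and 54.8% in leaf. The 9 genes under 5% had median CHG levels of 44.3% in endosperm, 64.2% in whole seed and 66.7% in leaf, and median upstream CG levels of 58.7% in endosperm, 85.4% in whole seed and 86.2% in leaf. The 20 genes had median upstream CG levels of 68.8% in endosperm, 59.9% in whole seed and 53.5% in leaf. The genes nearly without CHH methylation in endosperm thus carried CG and CHG methylation in the same window, but so did the strong CHH genes in general. For all 744 genes the endosperm medians were 41.0% for CHG and 50.2% for CG. Over the 744 genes, the endosperm mean of upstream CHH correlated weakly across genes with that of upstream CHG (r = 0.286, rho = 0.275) and CG (r = 0.161, rho = 0.149). Across genes, endosperm levels followed leaf levels with r = 0.446 and rho = 0.356, and seed levels with r = 0.682 and rho = 0.607. Genes are not independent replicates and the points share their libraries, so these coefficients describe this table only.

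Gene bodies were sorted by their leaf methylation, which the choice of genes did not use, on at least 20 CG and 20 CHG calls. Bodies with under 10% CG and under 10% CHG, called unmethylated, made up 384 of the 826 genes, or 46.5%, against 37.3% of all nuclear genes. Bodies methylated at CG alone, with at least 20% CG and under 10% CHG, a form known from housekeeping genes, made up 104 or 12.6%, against 11.3%. Heavily methylated bodies, with at least 40% CG and 20% CHG, a form known from transposons, made up 106 or 12.8%, against 22.0% of all genes. A further 152 genes, or 18.4%, fell between these classes, against 13.9% of all genes. Too few calls were found for 80, or 9.69%, against 15.6%, and such genes are part of the base of all these shares. Unmethylated bodies were thus more frequent, and heavily methylated ones less frequent, than among all genes. This was not tested, and the class just below in leaf level was similar, with a mean leaf body CHG of 12.8% in the strong CHH genes, against 14.8% in the class at 10 to 20% and 23.3% in the class under 10%.

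The body classes followed one course through the stages, at slightly different levels. Genes with CG-only bodies averaged 16.8% ± 3.00 upstream CHH in endosperm (SD, n = 8), against 19.9% ± 2.83 in whole seed (SD, n = 2), which is 84.0% of the seed level. For unmethylated bodies the means were 14.6% ± 2.71 in endosperm and 20.2% ± 2.67 in whole seed (SD, n = 8 and n = 2), or 72.1%. For heavily methylated bodies they were 16.1% ± 3.36 in endosperm and 21.5% ± 2.26 in whole seed (SD, n = 8 and n = 2), or 74.97%. The classes were measured in the same libraries, and CG-only bodies lay above unmethylated ones at all 8 endosperm stages, with 16.05% against 13.36% at 7 days, 13.3% against 11.2% at 11 days and 21.3% against 18.2% at 25 days. Of the tested genes, 44 of 372 with unmethylated bodies were called lower in endosperm, or 11.8%, 7 of 103 with CG-only bodies, or 6.80%, 10 of 103 with heavily methylated bodies, or 9.71%, and 13 of 147 with other bodies, or 8.84%, against 7.5 percent of all genes. Differences between these shares were not tested.

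**Figure D5:**
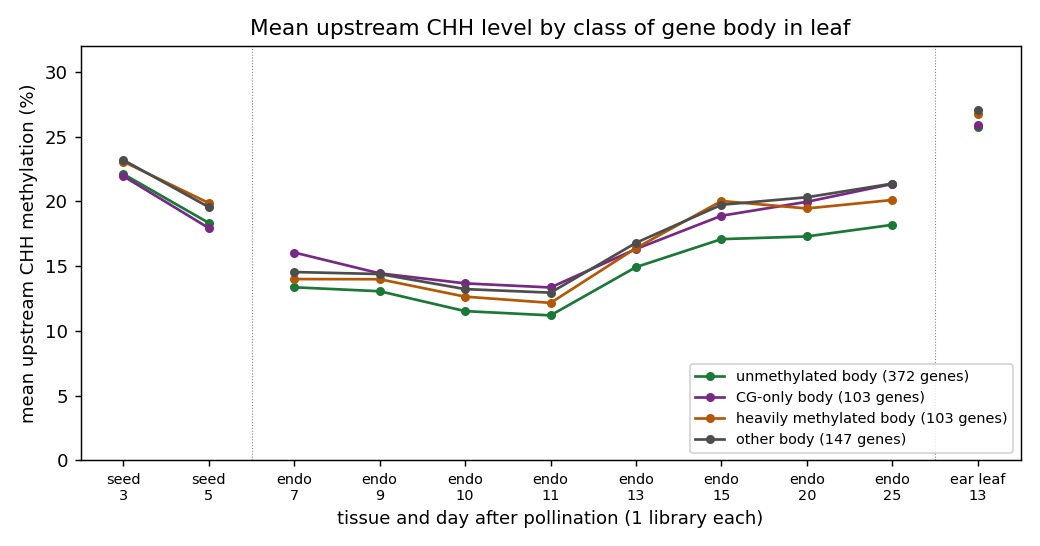
Mean upstream CHH level (%) by tissue and day after pollination, for genes grouped by the methylation of their gene body in leaf: unmethylated (green, 372 genes), CG-only (purple, 103), heavily methylated (brown, 103) and other (grey, 147). In endosperm all 4 curves are lowest at 11 days, and the green curve is the lowest at every stage from 7 to 25 days.

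Upstream CHG methylation was lower in endosperm than in whole seed for these genes as for the rest of the genome. Over 750 genes it averaged 41.7% ± 2.68 in endosperm (SD, n = 8) and 49.2% ± 1.13 in whole seed (SD, n = 2), with 50.4% in leaf. By limma, 68 of the 750 genes were called lower in endosperm, or 9.07%, and 0 higher, with 196 past an unadjusted p of 0.05, while 14.6 percent of all genes were called lower. The median difference was -7.20 points, against -8.67 over all genes. Relative to the whole-seed mean, endosperm stood at 84.8% for the strong CHH genes, 84.4% for the class at 10 to 20% in leaf and 84.3% for the class under 10%. These ratios were close to each other, while the seed mean was 49.2% in the strong CHH genes and 56.0% in the class under 10%. Without either seed library 0 genes passed (127 at an unadjusted p under 0.05 without the 3-day seed, 136 without the 5-day seed), and with the median over all genes subtracted from each library 0 were lower and the median difference was 4.42 points. Chloroplast gene bodies, taken to be unmethylated, read 2.10% to 2.72% CHG in endosperm, against 8.59% and 6.38% in the 3- and 5-day seeds and 2.41% in leaf, and the part of this in the CHG difference was not tested. As for CHH, only chloroplast models with a methylated call were counted.

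CHG methylation was not higher in late endosperm. The straight-line change of the mean from 7 to 25 days was -3.70 points for upstream CHG and -0.640 points for upstream CG. Upstream CG averaged 50.2% ± 1.76 in endosperm (SD, n = 8), 51.9% ± 0.878 in whole seed (SD, n = 2) and 53.1% in leaf, with endosperm and seed apart by less than the spread between endosperm libraries. Chloroplast gene bodies with a methylated CG call read 1.97% to 2.85% CG in endosperm, against 6.60% and 5.79% in the 3- and 5-day seeds, and the part of this in the CG difference was not tested. The 11-day library was the lowest of the endosperm series in all 3 contexts, at 36.9% for CHG and 46.9% for CG. Of the 80 genes called lower for CHH, 15 were also called lower for CHG, which is 18.8% of the CHH calls and 22.1% of the 68 CHG calls. Not all of the 80 could be tested for CHG. Of the strong CHH genes tested, 9.07% were called lower for CHG and 10.0% for CHH, and of all genes tested 14.6% and 7.5%. Both tests use the same libraries, and the overlap over all genes was not counted. AC209381.3_FG002 had the largest called CHG difference, -38.7 ± 8.57 points (SE; limma adjusted p = 0.0250), followed by GRMZM2G092433 with -36.3 ± 8.01 points (SE; limma adjusted p = 0.0248). Both calls were lost in 4 of 16 alternatives, among them without either seed.

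Upstream CHG in leaf was intermediate in most of these genes. It was at least 60% in 277 of 750 genes, or 36.9%, against 40.2% of the class at 10 to 20% upstream CHH and 59.1% of the class under 10%, and it was under 20% in 74 genes. Of the 399 genes with 20 to 60% CHG, 56 were called lower in endosperm for CHH and 22 rose with day. Of the 277 genes with at least 60% CHG, 13 were called lower and 17 rose with day, and of the 74 genes under 20% CHG, 8 were called lower and 1 rose with day. Over all genes 7.5 percent were called lower and 1.84 percent rose, and differences between the CHG classes were not tested. The CHH mean in endosperm was 16.8% ± 3.62 in the class with at least 60% CHG and 14.6% ± 2.64 in the intermediate class (SD, n = 8 each), measured in the same libraries, and this difference was not tested.

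Inside the gene bodies CHH methylation was low. Body CHH averaged 1.63% ± 0.160 in endosperm (SD, n = 8), against 2.26% ± 0.221 in whole seed (SD, n = 2) and 1.95% in leaf. By limma, 38 of 720 genes were called lower in endosperm, or 5.28%, where 5.42 percent of all genes were and 0.00308 percent were higher, and the median differences were -0.277 and -0.301 points. The share is at the background. Among the genes with a name, pdh2, a pyruvate dehydrogenase gene, had a body CHH difference of -5.05 ± 0.391 points (SE; limma adjusted p = 0.0001). The largest called differences were -9.44 ± 2.19 points in GRMZM5G824600 (SE; limma adjusted p = 0.0347), -9.35 ± 2.23 points in GRMZM5G899825 (SE; limma adjusted p = 0.0388) and -9.23 ± 2.00 points in GRMZM5G872254 (SE; limma adjusted p = 0.0263). Of 16 alternatives, the call was lost in 8 for GRMZM5G824600, 10 for GRMZM5G899825 and 3 for GRMZM5G872254. Without the 3-day seed all 3 were lost, at -7.11 points for GRMZM5G824600, -7.66 for GRMZM5G899825 and -5.15 for GRMZM5G872254 (limma adjusted p = 0.306, 0.293 and 0.267). GRMZM5G899825 on chromosome 5 was also lower upstream, with 2.98%, 5.46% and 13.0% CHH in endosperm, against 24.5% and 24.8% in seed and 22.1% in leaf, a difference of -18.5 ± 2.25 points (SE; limma adjusted p = 0.0019).

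Of the 826 genes, 504 matched a RefSeq gene and 76 of these carried a gene name. Strong CHH genes made up 2.09% of all nuclear gene models. Among genes of the methylation machinery, none of the 5 matched genes of RNA-directed DNA methylation was a strong CHH gene, and their highest leaf level was 3.86%. Of 14 matched genes of maintenance methylation, methyl-CpG binding and histone deacetylation, 1 was, mbd106, which encodes a methyl-CpG-binding domain protein. A second such gene by name, mbd123 (GRMZM2G119802), is a strong CHH gene outside the list, with 5.26%, 29.0% and 62.5% at the lowest, median and highest endosperm library, against 59.6% and 40.9% in the 3- and 5-day seeds and 47.4% in leaf. Its shallowest library held 32 calls, its endosperm libraries overlapped with the seeds, and neither of its tests passed (limma adjusted p = 0.479 against seed and 0.869 with day). mbd106 (GRMZM2G022365, chromosome 1, 175294828 to 175302644, minus strand) had 8.51%, 10.6% and 13.7% upstream CHH at the lowest, median and highest endosperm library, against 20.5% and 16.2% in the 3- and 5-day seeds and 21.1% in leaf, on at least 2532 calls. All 8 endosperm libraries were below both seeds, by a fitted difference of -7.60 ± 1.50 points (SE; limma adjusted p = 0.0162). The call was lost without the 3-day seed, at -5.42 points (limma adjusted p = 0.205), and with trended and robust moderation (limma adjusted p = 0.0652). Its slope with day did not pass the test, at 2.89 ± 1.72 points (SE; limma adjusted p = 0.485). In the list, 3 of 14 genes were lower in endosperm, where 7.5 percent of all genes were, and 1 rose with day, where 1.84 percent did. The median difference from seed was -0.09 points, against -0.74 over all genes. In the other lists, 1 of 21 tested storage protein genes was lower in endosperm, 1 was higher and 1 rose with day, 1 of 9 Polycomb and imprinted genes and 1 of 13 housekeeping genes rose with day, and the lists of RNA-directed DNA methylation, starch synthesis, transfer layer and aleurone, and photosynthesis held 0 called genes.

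Of all nuclear gene models 2.09% were strong CHH genes, and differences of the following lists from that share were not tested. None of 19 matched starch synthesis genes was a strong CHH gene, and the highest leaf level among them was 9.78%. Of 22 matched storage protein genes and their regulators 3 were: gz27, which encodes a gamma-zein, FL1, whose product floury1 sits in the membrane of protein bodies, and glb1, which encodes an embryo globulin. gz27 (GRMZM2G138727, chromosome 7, 120200894 to 120203011, plus strand) had 14.4%, 20.2% and 29.1% in endosperm, against 27.9% and 18.7% in seed and 26.2% in leaf, on at least 2686 calls. Its lowest level was at 10 days and its highest at 25 days, a fitted change of 13.2 ± 2.91 points that missed the threshold (SE; limma adjusted p = 0.0687). FL1 (GRMZM2G094532) had 12.2%, 16.3% and 22.2% in endosperm, against 25.4% and 21.9% in seed and 22.8% in leaf, and its difference of -6.83 ± 2.03 points also missed it (SE; limma adjusted p = 0.0767). glb1 (GRMZM2G067919) had 7.14%, 11.9% and 32.02% in endosperm, against 30.2% and 10.8% in seed and 20.5% in leaf, with the highest endosperm value at 25 days. Neither of its tests passed (limma adjusted p = 0.700 against seed and 0.275 with day).

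None of 17 transfer-layer and aleurone genes, 11 Polycomb and imprinted genes and 11 photosynthesis genes matched by list was among the strong CHH genes. The photosynthesis list held 23 symbols, and the photosystem antenna gene CP24, described below, is a strong CHH gene outside the matched genes. Over all nuclear gene models 2.09% were strong CHH genes. Of 13 housekeeping genes 2 were, eif5a, a translation factor gene, and GAPC, a cytosolic glyceraldehyde-3-phosphate dehydrogenase gene of glycolysis. GAPC (GRMZM2G046804) had 11.5%, 16.2% and 20.6% in endosperm, against 22.9% and 18.8% in seed and 26.0% in leaf. eif5a (GRMZM2G113696) had 11.3%, 26.2% and 45.6% in endosperm, against 24.6% and 51.2% in seed and 31.6% in leaf. Neither passed the test against seed (limma adjusted p = 0.204 for GAPC and 0.593 for eif5a). The values of eif5a spread widely, and its shallowest library held 46 calls.

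Among the 30 genes named by list or by leaf level, 2 rose with day in endosperm, and pnFL-2 could not be tested. Of the 800 strong CHH genes tested, 5.12% rose, and of all genes tested 1.84%. COAC2 (GRMZM2G161299, chromosome 5, 152431597 to 152440850, minus strand), an acetyl-CoA carboxylase gene of fatty acid synthesis, had 9.97% at 9 days and 40.02% at 25 days with an endosperm median of 19.9%, against 29.3% and 31.9% in seed and 33.2% in leaf. It rose by 25.1 ± 4.53 points (SE; limma adjusted p = 0.0423), and its adjusted p lay between 0.0367 and 0.291 over 13 alternatives, with the call lost in 9. pdi7 (GRMZM2G159369, chromosome 6, 126779719 to 126784379, plus strand), a protein disulfide isomerase gene, had 19.5% at 10 days and 42.4% at 25 days with a median of 30.5%, against 29.6% and 19.9% in seed and 29.4% in leaf. It rose by 18.9 ± 3.53 points (SE; limma adjusted p = 0.0461), with 0.0446 to 0.233 over 13 alternatives and the call lost in 10. In both genes the 25-day endosperm exceeded the leaf.

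A few further named genes had levels that passed no test for upstream CHH. The photosystem antenna gene CP24 had 18.5%, 26.8% and 40.7% in endosperm, against 37.9% and 33.4% in seed and 38.2% in leaf (limma adjusted p = 0.365 against seed). The autophagy gene Atg7 had 16.3%, 19.9% and 28.1% in endosperm, against 23.0% and 23.2% in seed and 30.7% in leaf, with a fitted change of 12.0 ± 2.46 points with day (SE; limma adjusted p = 0.0590). The calcium-dependent protein kinase gene CDPK1 had 10.6%, 16.7% and 21.9% in endosperm, against 20.0% and 29.9% in seed and 31.4% in leaf (limma adjusted p = 0.160 against seed). In all 3 the endosperm median was below both seeds, but this did not hold for all named genes. In nrx1, Coilin and pdi7, the last described above, the endosperm median was above both seeds. In ltk1 and cys1, among others, it lay between the seeds. expB5, a beta-expansin gene of cell wall loosening, had 14.8%, 21.7% and 26.5% in endosperm, against 29.6% and 28.6% in seed and 28.8% in leaf, on at least 3480 calls. Its endosperm libraries did not overlap with the seeds, but the difference of -7.11 ± 2.66 points missed the threshold (SE; limma adjusted p = 0.153).

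The strong CHH genes were spread evenly over the chromosomes, with 1.81% to 2.38% of the gene models of each of the 10 chromosomes. Their median length was 2967.5 bases, against 2938 for the class at 10 to 20% in leaf and 2457 for the class under 10%. The median distance to the next gene model upstream was 23249 bases, against 27844 and 30749, and the median number of neighbours within 500 kb was 25, against 24 and 22. Counted from the nearer chromosome end as a percentage of the way to the middle, the median position was 26.4%, against 29.2% and 35.6%. A RefSeq match was found for 61.0%, against 57.8% and 46.6%, and 4.84% were FGENESH predictions, against 5.70% and 8.06%. On each of these measures the genes lay nearer to the class just below them in leaf level than to the class under 10%. They had fewer leaf CHH calls, a median of 606.5 against 1078 and 758.5.

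The threshold of 20% cut through a continuous distribution. Just inside it, GRMZM2G364178, GRMZM2G090332 and GRMZM2G004898 had 20.0% in leaf and endosperm medians of 9.64%, 7.39% and 11.0%. Just outside it, GRMZM2G135199 had 19.99% in leaf, and GRMZM5G883564 and GRMZM2G086450 had 19.98%, with endosperm medians of 14.2%, 8.10% and 8.07%. The 136 tested genes at 20 to 21% in leaf averaged 12.6% in endosperm and 16.8% in whole seed, and the 157 genes at 19 to 20% averaged 12.5% and 17.02%. The 37 genes at 40% and more in leaf averaged 25.2% ± 7.06 in endosperm (SD, n = 8) and 34.0% in whole seed, and the 454 genes at 20 to 25% averaged 13.2% ± 2.56 in endosperm (SD, n = 8) and 17.9% in whole seed. Endosperm was between 74.0% and 77.6% of whole seed in all 4 bands of leaf level.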

How the data were processed

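Bisulfite libraries of 11 Mo17 samples were analysed from 1 deposited table each. The tables list 39656 gene models with methylated call counts and levels in percent for CG, CHG and CHH, upstream and in the gene body, as the authors deposited them. Per the submitters' processing notes, cutadapt, Bismark and Bowtie2 were used; no source used here states the genome build or upstream width, and coordinates are those of the tables. Total calls were recovered as 100 times the count divided by the deposited percent level. In 100.0% of 800474 values precise enough to tell, this gave a whole number within rounding. For a methylated count of 0, other contexts of the same gene served to estimate the total, and a gene at 0 in all 3 contexts was missing. Plastid and mitochondrial models were left out (57 and 124).

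Levels in percentage points were fitted with limma 3.58.1 (R 4.3.3) over all genes with at least 10 calls in every library, for CHG also a mean of at least 1%, with Benjamini-Hochberg adjustment at 0.05. Means, classes and correlations used Python 3.11.15, and the fits were tested on simulated data. Names come from RefSeq (assembly Zm-B73-REFERENCE-NAM-5.0), used for names alone. Named genes are up to 30 on lists or with a name by leaf level, the 5 highest minima and lowest maxima, the 3 largest called changes per comparison and direction, and the 3 on either side of the threshold. The members and lists were chosen with earlier results of these data known. Alternatives changed the scale, call minimum, moderation, centring, member rule, day covariate and libraries.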

Additional observations from a re-analysis of the deposited data

Results flagged for a closer look

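In 3 of 59 groups of endosperm libraries examined, 1 library stood apart from the rest, where chance gives about 1 in 20. The bHLH transcription factor gene bHLH11 (GRMZM2G176289) read 24.83% upstream CHH at 20 days, against 7.06% to 13.39% in the other endosperm libraries. bHLH148 (GRMZM2G080054) read 23.14% at 20 days, against 1.12% to 7.55%. pnFL-2 (GRMZM2G005954), which had no value at 20 days, read 45.52% at 25 days, against 22.19% to 31.36%.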

How the results depend on the processing

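The mean difference between endosperm and whole seed (-5.05 points) and the change with day (7.68 points) kept their sign in all alternatives run, at -6.91 to -3.19 and 7.13 to 9.19 points when 1 library was left out. The share of strong CHH genes called lower in endosperm (10.0%) was 5.875% on the arcsine scale, 6.625% with library medians subtracted, 6.65% for genes at 25% and more in leaf, 16.125% with day as a covariate, and 3.125% to 11.75% with 1 library left out. The share rising with day (5.125%) was 0.25% on the arcsine scale, 0% with trended and robust moderation, and 0% to 5.5% with 1 library left out. For upstream CHG (9.07%), 0% were lower with medians subtracted, where the median difference reversed to 4.42 points and 2 genes were higher, 0% with day as a covariate, and 0% to 13.6% with 1 library left out; 43, 41, 41 and 37 of 750 genes passed without the 11-, 13-, 20- and 25-day endosperm. For body CHH (5.28%) the shares were 2.08% on the arcsine scale, 1.94% with medians subtracted, 1.67% with day as a covariate, and 2.92% to 7.08% with 1 library left out, with 21, 24 and 24 genes without the 3-day seed and the 9- and 11-day endosperm. The cause was not tested. The upstream CHG difference of GRMZM2G374969 reversed to 0.671 points with medians subtracted (adjusted p = 0.937; 0.0221 to 0.937 over 16 alternatives). Of 446 settings for 29 named gene comparisons, 291 kept the call and 154 lost it with the same sign. No paired analysis was possible because each stage has 1 library and the labels give no replicate numbers. Genes near 50 calls have intervals up to 25.9 points wide, which limits what can be seen in them.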
